A study of Mus musculus with 15 samples.

Results

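The MYC, MAX and MXD network was taken as 9 genes, found by symbol in the count tables: Myc, Max, Mxd1, Mxd3, Mxd4, Mxi1, Mnt, Mlx and Odc1. They are 9 of the 17493 genes in the tables, and all 9 were among the 10831 genes with enough counts to be tested. The cells were CD8+ OT-I T lymphocytes of female mice of the strain C57BL/6-Tg(TcraTcrb)1100Mjb/Crl (OT-1), taken from spleen and lymph nodes. T cells of this strain carry a transgenic T cell receptor, in the control group as in the others. Of the 5 groups of 3 libraries, 1 was unstimulated (0 h). The others were stimulated for 8 h or 22 h, either with immunofilaments (IF) at 5 ng/ml or with 20000 dendritic cells (DC) per well. Immunofilaments are synthetic polymers, here carrying IL-2 and major histocompatibility complex molecules loaded with the peptide SIITFEKL. The dendritic cells were Flt-3Ligand dendritic cells pulsed with that peptide, and each stimulated well held 50000 T cells. Viable CD8+ CD103- cells were sorted before RNA extraction. The question was how the transcriptomes after either stimulus compare with each other and with the unstimulated cells. The sample titles end in "Don" with a number from 1 to 3, repeated in all 5 groups. The labels do not spell out what Don stands for or whether the libraries came from separate mice, so p-values measure the spread between these samples, which may be technical.

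MYC is a transcription factor that binds DNA as a pair with MAX, mainly at the sequence CACGTG, called the E-box. The proteins MXD1, MXD3, MXD4, MXI1 (also named MXD2) and MNT compete for MAX and recruit corepressors to the same sites, while MLX pairs with some of these repressors and with the glucose-sensing factors MONDOA and CHREBP. In T cells, antigen receptor and IL-2 signals induce MYC, which is needed for the growth in cell size and metabolism that precedes division. Odc1 encodes ornithine decarboxylase, the rate-limiting enzyme of polyamine synthesis and a classical MYC target.

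The E-box was looked for in the promoters of the network's own genes, because it is the site that joins the members to one another. RefSeq promoters on GRCm38.p6 were searched, each running from 250 bases before to 50 bases after the annotated start, and 8 of the 9 members had an entry. The letters CACGTG, which read the same on both strands, stood in the promoters of Max, Mxd4, Mnt and Mlx. They were not found in those of Mxd1, Mxd3 and Odc1 or in the 3 entries of Mxi1. The sites are shown with 20 flanking bases, 5′ to 3′ on the gene's strand, and the E-box is in capitals.
Max, chr12:76962226-76962271, minus strand: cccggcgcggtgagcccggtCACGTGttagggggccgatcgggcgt
Mxd4, chr5:34187904-34187949, minus strand: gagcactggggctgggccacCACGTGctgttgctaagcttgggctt
Mnt, chr11:74830781-74830826, plus strand: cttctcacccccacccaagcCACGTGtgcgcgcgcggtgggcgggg
Mlx, chr11:101087230-101087275, plus strand: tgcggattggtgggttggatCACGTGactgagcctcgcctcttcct
The first base of the motif lay 3 bases before the start in Max, 40 in Mlx, 123 in Mnt and 219 in Mxd4. Of all 32851 promoters of this length, 7.15% held CACGTG, and of the 8165 tested genes with an entry, 12.1% did. The promoter of Odc1, the member that passed the test at 8 h, held the variant CACGCG on each strand, 180 and 101 bases before the start. That stretch is shown with both copies in capitals, the upstream copy reading CGCGTG on the gene's strand.
Odc1, chr12:17544673-17544797, plus strand: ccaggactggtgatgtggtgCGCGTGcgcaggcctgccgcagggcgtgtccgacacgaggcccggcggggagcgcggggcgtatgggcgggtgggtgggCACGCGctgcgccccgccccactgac
Either orientation of this variant stood in 9.27% of all promoters and in 20.8% of the tested genes. These matches describe letters in a window and do not show binding.

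The libraries held 2892874 to 19806730 counts, the fewest in the IF 8 h group (2892874 to 5572030). Levels are given as CPM, the count scaled to a common library total after correction by trimmed mean of M-values (TMM). A gene is said to have risen or fallen where edgeR's quasi-likelihood test gave an adjusted p under 0.05 over all genes tested. Markers of the T cell were lower after stimulation: their summed level was 8619 to 9359 CPM in the unstimulated libraries and 3880 to 6245 CPM in the others. Of 22 dendritic cell markers 18 were tested: 1 was higher and 5 lower than in unstimulated cells in IF 8 h, 2 and 0 in DC 8 h, 2 and 5 in IF 22 h, and 2 and 5 in DC 22 h. Fscn1, an actin bundling protein of mature dendritic cells, was at 126 to 168 CPM in the DC 8 h group and at 72.9 to 94.8 CPM in the DC 22 h group, against 0.268 to 0.663 CPM in the IF 8 h group. The whole list summed to 1865 to 2995 CPM in the unstimulated group, 1000 to 1523 CPM in IF 8 h, 1570 to 2201 CPM in DC 8 h, 1667 to 2014 CPM in IF 22 h and 922 to 1541 CPM in DC 22 h. The highest sum was that of an unstimulated library, so the sum is not a measure of dendritic cell content. Lyz2 was at 0.663 CPM or less in every library. The unstimulated libraries, the controls of every comparison with time 0, were high in immediate early and handling stress genes. These summed to 3863 to 5474 CPM there and to 2115 to 4062 CPM in the stimulated libraries, and of 17 genes 10 (IF 8 h), 9 (DC 8 h), 10 (IF 22 h) and 11 (DC 22 h) were lower than in unstimulated cells and 0 higher. Beside both lists, 3.04% of all tested genes were higher and 4.72% lower in IF 8 h, and 2.75% and 4.07% in DC 8 h. At 22 h the shares were 2.63% and 3.44% (IF) and 3.41% and 4.35% (DC). The part of the stress genes in the results below was not tested. When libraries were scaled by size alone, the median gene stood 0.22 to 0.37 (log2) above unstimulated cells in the 4 stimulated groups, so directions below are relative to the median gene. In bulk RNA, fewer cells of a type and less RNA per cell cannot be told apart.

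Odc1 rose at 8 h with both stimuli and was the only member called by edgeR over all groups in any of 9 comparisons. In the unstimulated libraries it was at 77.9, 81.3 and 85.7 CPM. It was at 198, 124 and 224 CPM in the IF 8 h group and at 165, 241 and 181 CPM in the DC 8 h group, so that neither group overlapped the controls. At 22 h it was at 101, 125 and 157 CPM with immunofilaments and at 119, 243 and 103 CPM with dendritic cells, again all above the controls. The highest DC 22 h library, replicate 2, was more than 100 CPM above the other two.

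The rise of Odc1 at 8 h was 2.23-fold with immunofilaments (log2 fold change 1.16 ± 0.30 SE, adjusted p = 0.0247, edgeR) and 2.39-fold with dendritic cells (1.26 ± 0.29, adjusted p = 0.0154). At 22 h the edgeR log2 fold changes were 0.65 ± 0.29 (adjusted p = 0.218) with immunofilaments and 0.92 ± 0.29 (adjusted p = 0.0651) with dendritic cells, and neither passed the threshold. In the IF 8 h comparison 1 of 9 members was called, where 7.76% of all tested genes were. In the DC 8 h comparison it was also 1 of 9, against 6.82% of all genes. No member was called at 22 h, where 6.08% (IF) and 7.76% (DC) of all genes were; at an unadjusted p under 0.05 edgeR counted 2 members with immunofilaments and 1 with dendritic cells, beside 20.5% and 22.2% of all genes. Members that did not overlap the controls numbered 5 of 9 in IF 8 h (Myc, Max, Mnt, Mlx and Odc1), 3 in DC 8 h (Mxd1, Mlx and Odc1), 3 in IF 22 h (Mxd1, Mxd3 and Odc1) and 1 in DC 22 h (Odc1). The same held for 30.6%, 28.2%, 30.4% and 27.1% of all genes. Both 8 h calls were lost in some fits without 1 library, although all 3 libraries of each group exceeded the controls. With immunofilaments the call was kept only without IF 8 h replicate 2, and was lost when unstimulated replicate 1, 2 or 3 or IF 8 h replicate 1 or 3 was left out (adjusted p from 0.0732 to 0.108 in edgeR, log2 fold change 0.98 to 1.19). With dendritic cells it was lost without unstimulated replicate 1, 2 or 3 or DC 8 h replicate 2 (adjusted p from 0.0514 to 0.0721 in edgeR, log2 fold change 1.08 to 1.30). Without DC 22 h replicate 3 the DC 22 h difference passed (log2 fold change 1.15, adjusted p = 0.0213, edgeR), and without DC 22 h replicate 2 it was 0.46 (adjusted p = 0.314). The DC 22 h difference also passed with library size alone, without the low-count filter, with a mean of at least 10 CPM and with DESeq2. The IF 22 h difference passed without that filter and in the fit of the compared groups. It passed in 0 of 6 fits without 1 library.

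**Figure D1:**
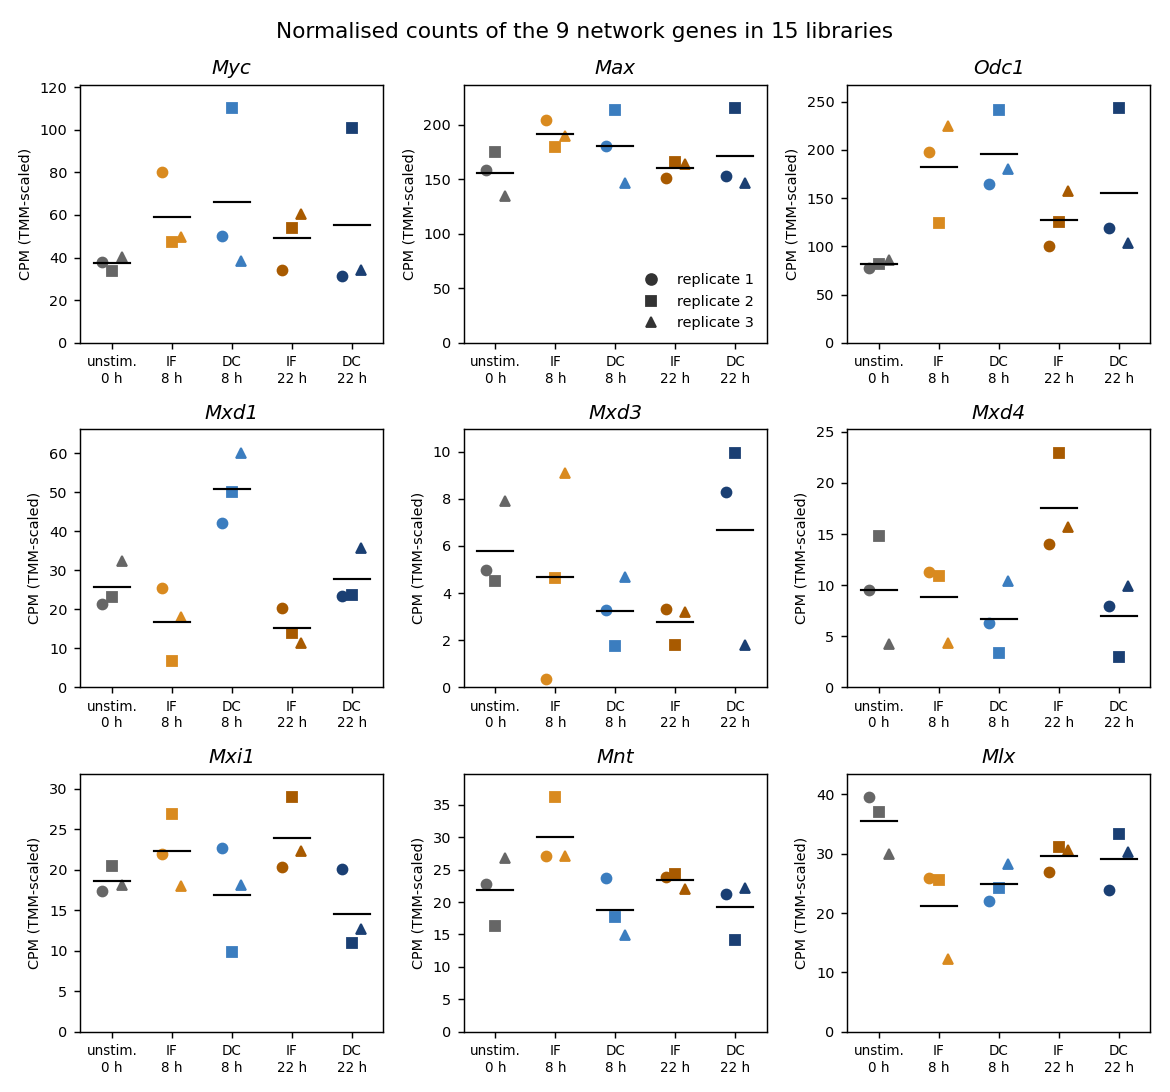
Level of each of the 9 members (CPM, vertical axis, own scale in each panel, starting at 0) in each of the 15 libraries, by group; each point is a library and each bar the group mean. Odc1 lay between 77.9 and 85.7 CPM in the unstimulated libraries and above them in all 12 stimulated ones, while Myc was spread most within the DC groups.

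The factor itself, Myc, was spread widely within the DC groups and little within the unstimulated group. It was at 37.7, 33.8 and 40.3 CPM without stimulation and at 80.3, 47.4 and 49.8 CPM in the IF 8 h group, all above the controls. In the DC 8 h group it was at 50.1, 110 and 38.2 CPM, and in the DC 22 h group at 31.2, 101 and 34.4 CPM, so that replicate 2 was the high library in both. The IF 22 h libraries were at 34.2, 53.7 and 60.2 CPM. The group means were 37.3 ± 3.26 (SD, n = 3) unstimulated, 59.2 ± 18.3 and 66.1 ± 38.5 at 8 h (IF and DC), and 49.4 ± 13.6 and 55.4 ± 39.2 at 22 h.

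None of these differences of Myc passed the test. Against unstimulated cells the edgeR log2 fold changes were 0.67 (95% interval -0.24 to 1.59, adjusted p = 0.379) for IF 8 h and 0.83 (-0.08 to 1.74, adjusted p = 0.286) for DC 8 h. For IF 22 h the value was 0.41 (-0.49 to 1.31, adjusted p = 0.648) and for DC 22 h 0.57 (-0.33 to 1.48, adjusted p = 0.461). Without replicate 2 the DC 8 h value was 0.25 and the DC 22 h value -0.16, and without both IF 22 h replicates 2 and 3 the IF 22 h value was -0.12. The DC 8 h value passed in edgeR without the low-count filter (0.83, adjusted p = 0.0229) and in 0 of 6 fits without 1 library. The intervals reach from somewhat below the controls to a rise of about 3-fold.

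Max, the partner of MYC, the MXD proteins and MNT, had the narrowest range of group means among the members, 0.30 on the log2 scale. It was at 158, 175 and 135 CPM without stimulation and between 146 and 215 CPM in the 12 stimulated libraries. In the IF 8 h group all 3 libraries (205, 180 and 189 CPM) were above the controls, with a log2 fold change of 0.29 ± 0.18 (adjusted p = 0.360, edgeR). In the other comparisons with unstimulated cells it differed by 0.04 to 0.21, with adjusted p from 0.567 to 0.935 in edgeR.

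Mxd1, which encodes the founding MXD repressor, had the widest range of group means of the 9 members, 1.77 on the log2 scale. It was at 21.4, 23.1 and 32.4 CPM in unstimulated cells and at 25.5, 6.63 and 17.9 CPM after 8 h of immunofilaments. After 8 h with dendritic cells it was at 42.1, 50.1 and 60.1 CPM, above every library of every other group. At 22 h it was at 20.2, 14.0 and 11.4 CPM with immunofilaments and 23.4, 23.7 and 35.8 CPM with dendritic cells. The 2 stimuli did not overlap at either time, as for 13.5% (8 h) and 19.9% (22 h) of all genes.

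Mxd1 nevertheless missed the threshold in the direct comparison of the stimuli at 8 h, with a log2 difference, IF minus DC, of -1.57 ± 0.36 (95% interval -2.33 to -0.81, adjusted p = 0.0576, edgeR). The value was -0.87 ± 0.35 at 22 h (adjusted p = 0.228). DESeq2 gave an adjusted p of 0.00282 at 8 h, and without IF 8 h replicate 1 edgeR gave 0.0357 (log2 difference -2.04). In the other 5 fits without 1 library it did not pass (adjusted p up to 0.2), and without IF 8 h replicate 2 the difference was -1.21. Against unstimulated cells the DC 8 h value was 0.99 ± 0.35 (adjusted p = 0.106) and the IF values were -0.58 at 8 h (adjusted p = 0.361) and -0.75 at 22 h (adjusted p = 0.237), all in edgeR. The DC 8 h libraries, where Mxd1 was highest, also held the most Fscn1 (126 to 168 CPM) and Ccl22 (10.3 to 18.2 CPM), both made by mature dendritic cells. Over the whole list, 4 of 18 tested markers were lower with immunofilaments than with dendritic cells at 8 h and 0 were higher. Of all tested genes, 0.434% were lower and 0.231% higher. At 22 h, where Mxd1 was also higher with dendritic cells, 2 markers were lower and 2 higher with immunofilaments. Of all tested genes, 1.2% were lower and 1.23% higher there. Zbtb46, a transcription factor of classical dendritic cells, was at 0 in the unstimulated and IF 8 h libraries and at 1.77 ± 0.56 CPM (SD, n = 3) in the DC 8 h group. The part of these markers in the level of Mxd1 was not tested.

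The other repressor genes gave no call. Mxd4 was highest in the IF 22 h group, at 14.0, 22.9 and 15.7 CPM, against 7.97, 2.99 and 9.91 CPM in the DC 22 h group, with no overlap (log2 difference 1.33 ± 0.51, adjusted p = 0.203, edgeR). In unstimulated cells it was at 9.54, 14.8 and 4.19 CPM, which overlapped every group. At 22 h, B cell markers had the same library order as Mxd4 within each group. The 7 of 10 that were found summed to 28.1, 53.7 and 32.6 CPM in the IF 22 h libraries. In the DC 22 h libraries they summed to 13.1, 5.86 and 20.6 CPM. The order was also shared in DC 8 h (sums of 15.45, 4.97 and 17.3 CPM, Mxd4 at 6.34, 3.35 and 10.4 CPM). It was not shared in IF 8 h (sums of 9.46, 42.1 and 10.98 CPM, Mxd4 at 11.2, 10.9 and 4.29 CPM). Nor was it shared in unstimulated cells, where the sums were 22.8, 28.55 and 28.63 CPM. None of the 5 tested B cell markers was called between the stimuli at 22 h. IF 22 h replicates 2 and 3 also held 0.179% and 0.146% mitochondrial ribosomal RNA. The part of either in Mxd4 was not tested. Mxi1 was at 20.4, 28.9 and 22.3 CPM in the IF 22 h group and at 20.03, 10.9 and 12.6 CPM in the DC 22 h group (0.71 ± 0.30, adjusted p = 0.249, edgeR). Mnt, the repressor found in most cell types, was at 27.1, 36.1 and 27.1 CPM in the IF 8 h group, above the controls (22.8, 16.3 and 26.8 CPM) and the DC 8 h group (23.8, 17.8 and 14.98 CPM). The IF minus DC difference of Mnt at 8 h was 0.67 ± 0.25 (adjusted p = 0.426, edgeR). Mxd3, linked to proliferating cells, was the lowest-count member, with 50 to 184 counts in each group of 3 libraries and levels of 0.357 to 9.95 CPM, with standard errors of 0.73 to 0.77 against unstimulated cells. Its IF 22 h libraries (1.79 to 3.33 CPM) lay below the controls (4.52 to 7.91 CPM), and no difference passed the test.

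Mlx was the member with the lowest adjusted p after Odc1 in the IF 8 h comparison. Its 3 unstimulated libraries were at 39.5, 37.0 and 30.0 CPM and its IF 8 h libraries at 25.9, 25.5 and 12.3 CPM, without overlap. The log2 fold change was -0.74 ± 0.25 (95% interval -1.28 to -0.20, adjusted p = 0.0881, edgeR), and DESeq2 gave an adjusted p of 0.0441. It was -0.47 (adjusted p = 0.277) without IF 8 h replicate 3, the lowest library, and -0.50 with scaling by library size alone. In the DC 8 h group Mlx was at 22.1, 24.2 and 28.3 CPM, also below all controls (-0.52 ± 0.25, adjusted p = 0.247, edgeR). At 22 h it was at 26.9 to 31.2 CPM with immunofilaments and 23.9 to 33.3 CPM with dendritic cells.

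Exons of Mlx overlap Psmc3ip on the other strand, those of Mxd3 overlap Prelid1, and those of Mxi1 and Mxd4 overlap the opposite-strand models Gm10197 and Gm42846 (GENCODE vM21). Whether counting used strand is not given in the sources used here, so reads of overlapping exons may have been counted for the wrong gene. Gm10197 and Gm42846 are not among the genes of the count tables. On GRCm38 the 9 genes lie at chr15:61985391-61990374 (Myc), chr12:76937269-76962201 (Max), chr6:86647042-86669161 (Mxd1), chr13:55325168-55329823 (Mxd3) and chr5:34173883-34187720 (Mxd4). The others lie at chr19:53310518-53375810 (Mxi1), chr11:74830920-74845725 (Mnt), chr11:101087277-101092207 (Mlx) and chr12:17544794-17551505 (Odc1). All 9 are protein-coding genes, and Myc, Max, Mxd1, Mnt and Odc1 have no exon overlap with another gene.

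**Figure D2:**
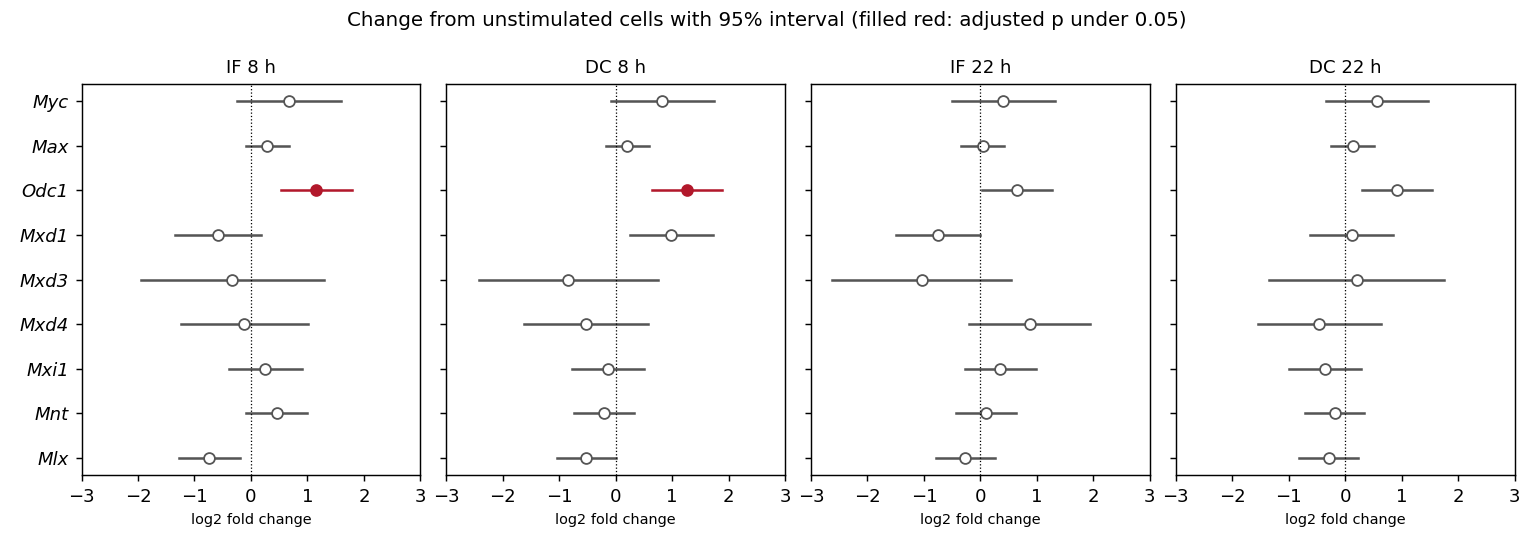
Log2 fold change of each member against unstimulated cells (horizontal axis) in the 4 stimulated groups, from edgeR; points are estimates and bars 95% intervals, 3 libraries a group. The Odc1 intervals of both 8 h groups lie above 0 (0.53 to 1.78 and 0.64 to 1.88), and the intervals of Myc include 0 in all 4 groups.

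Between the stimuli, no member was called at 8 h, where 0.665% of all genes were, or at 22 h, where 2.43% were. At an unadjusted p under 0.05, edgeR counted 2 members at 8 h (Mxd1 and Mnt) and 3 at 22 h (Mxd1, Mxd4 and Mxi1), where 8.27% and 15.3% of all genes were under it. Members whose groups did not overlap numbered 2 of 9 at 8 h (13.5% of all genes) and 3 of 9 at 22 h (19.9%). For the activating arm the differences were small with wide intervals. Myc differed by -0.15 (-1.05 to 0.75) at 8 h and -0.16 (-1.05 to 0.73) at 22 h, and Odc1 by -0.10 (-0.71 to 0.51) and -0.28 (-0.89 to 0.33), with edgeR adjusted p from 0.719 to 0.987. A difference of up to about 2-fold in Myc therefore could not be told from none.

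**Figure D3:**
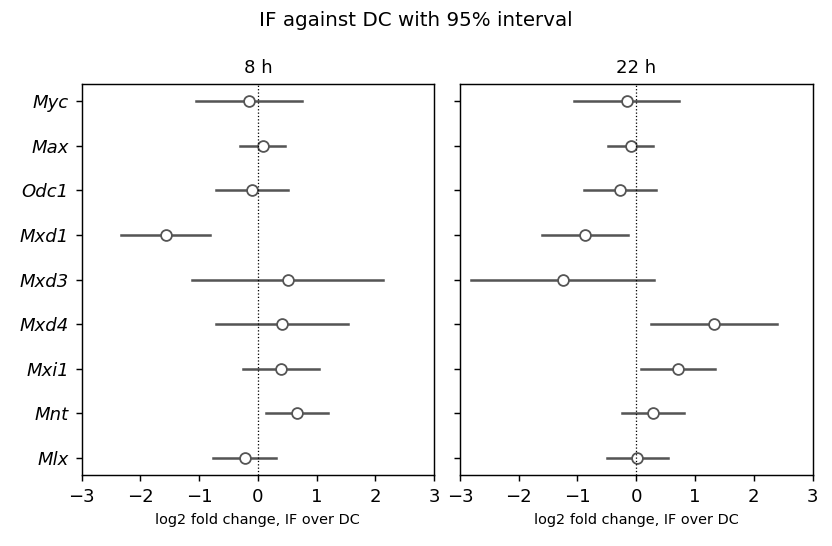
Log2 difference between immunofilaments and dendritic cells (IF minus DC, horizontal axis) for each member at 8 h and 22 h, from edgeR with 95% intervals. Mxd1 lies below 0 at both times (-1.57 and -0.87), and Mxd4 and Mxi1 lie above 0 at 22 h (1.33 and 0.71); none passed the adjusted threshold.

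Between 8 h and 22 h no member was called with either stimulus, where 1.12% (IF) and 0.48% (DC) of all genes were. At an unadjusted p under 0.05, edgeR counted 0 members with immunofilaments and 1, Mxd1, with dendritic cells, beside 1622 and 978 of the 10831 genes. Mxd1 went from 42.1 to 60.1 CPM at 8 h to 23.4 to 35.8 CPM at 22 h with dendritic cells, without overlap (log2 difference -0.87, adjusted p = 0.402, edgeR). In the DC groups all 3 same-numbered pairs of libraries deviated together from their group means (correlations of 0.12 to 0.40). In a fit of the DC groups alone with the replicate block, chosen after seeing the data, the value for Mxd1 was -0.90 ± 0.16 (adjusted p = 0.0293, edgeR), and it was 1 of 166 genes called among 10182. This call depends on the pairing by number, and 2 differently numbered DC pairs also had correlations over 0.1 (0.107 and 0.117). Odc1 was lower at 22 h than at 8 h by 0.51 (IF, adjusted p = 0.441) and 0.34 (DC, adjusted p = 0.834) on the log2 scale in edgeR. Mxd4 in the IF groups differed by 0.99 (adjusted p = 0.397). The groups of the 2 times did not overlap for 4 of 9 members with immunofilaments and 1 with dendritic cells, beside 21.5% and 13.9% of all genes. The test of whether the IF minus DC difference changed from 8 h to 22 h called no member and 0% of all genes (858 genes had an unadjusted p under 0.05, and DESeq2 called 40; edgeR called 155 without the low-count filter and 279 without IF 22 h replicate 1, none of them a member). The smallest adjusted p of a member was 0.702, for Mxd3, in edgeR.

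The genes that MYC activates in other cells were taken as a list of 57, of which 56 were tested; it holds nucleolar and ribosome factors, nucleotide synthesis, translation, transport and cell cycle genes. With immunofilaments at 8 h, 2 of 56 rose and 2 fell; with dendritic cells at 8 h 1 rose; at 22 h 1 rose with immunofilaments, and 5 rose and 1 fell with dendritic cells. Of all tested genes, 3.04% rose and 4.72% fell in IF 8 h, 2.75% and 4.07% in DC 8 h, 2.63% and 3.44% in IF 22 h, and 3.41% and 4.35% in DC 22 h. The list's median log2 fold change was 0.46 (IF 8 h), 0.44 (DC 8 h), 0.25 (IF 22 h) and 0.47 (DC 22 h), beside 0.02, 0.04, 0.01 and 0.04 over all genes tested. Values above 0 numbered 44, 46, 43 and 48 of 56. The counts of calls on this list depended strongly on the processing, in both directions, as given in the last section.

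Ncl, the nucleolar protein nucleolin, was called in 3 of the 4 groups. It was at 508, 437 and 449 CPM in the controls, rose by 1.23 ± 0.27 on the log2 scale in the IF 8 h group (adjusted p = 0.0102), 0.95 ± 0.26 in DC 8 h (adjusted p = 0.0373) and 1.02 ± 0.26 in DC 22 h (adjusted p = 0.0250), all in edgeR. Reads of the small nucleolar RNAs in its introns share its strand. Shmt1, which makes one-carbon units for nucleotide synthesis, rose from 5.14, 7.95 and 5.82 CPM to 45.9, 23.2 and 27.9 CPM with immunofilaments at 8 h (2.37 ± 0.61, adjusted p = 0.0269) and by 2.31 and 2.56 in the IF and DC 22 h groups (adjusted p = 0.0316 and 0.0159). Tfrc, the transferrin receptor, and Hspd1, a mitochondrial chaperonin, rose in the DC 22 h group by 1.39 ± 0.31 (adjusted p = 0.0101) and 1.48 ± 0.40 (adjusted p = 0.0293, edgeR). Exons of Shmt1 overlap Smcr8 on the other strand, and those of Hspd1 overlap Hspe1 on the other strand.

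E2f1, which switches on genes of DNA replication, fell in the IF 8 h group from 9.84, 12.7 and 10.5 CPM to 3.03, 0.332 and 1.88 CPM (-2.51 ± 0.59, adjusted p = 0.0164, edgeR), and its value in DC 8 h was -0.50 (adjusted p = 0.613). The direct difference between the stimuli at 8 h, IF minus DC, did not pass (-2.01 ± 0.59, adjusted p = 0.185, edgeR). It was higher at 22 h than at 8 h with both stimuli, by 3.43 (IF, adjusted p = 0.0083, and 0.367 without both IF 22 h replicates 2 and 3) and 2.31 (DC, adjusted p = 0.0399), and rose above the controls in the DC 22 h group (1.81 ± 0.48, adjusted p = 0.0278). E2f2 fell with immunofilaments at 8 h (-1.68 ± 0.46, adjusted p = 0.0358), a call lost with scaling by library size alone (adjusted p = 0.057) and with the replicate number as a block (0.0517). Ccne1, cyclin E1, was higher at 22 h than at 8 h with dendritic cells (2.26, adjusted p = 0.0283). The DC calls of E2f1 and Ccne1 between the times were each lost in 5 of 6 fits without 1 library (adjusted p up to 0.205 and 0.184) and in a fit of the DC groups alone without a block (0.276 and 0.249). With the replicate block the adjusted p of this E2f1 difference was 0.0568 over all groups and 0.0116 in a fit of the DC groups alone. Slc3a2, the heavy chain of an amino acid transporter, fell in the DC 22 h group (-0.81 ± 0.20, adjusted p = 0.0191), although with scaling by library size alone this call was lost (-0.47). Of the calls above against unstimulated cells, each was lost in between 1 and 5 of 6 fits that left out 1 library. Ncl in IF 8 h and Tfrc in DC 22 h were lost in 1, and Shmt1 in IF 8 h and IF 22 h, Ncl in DC 8 h and E2f1 in DC 22 h in 5. In a fit of the DC 22 h and unstimulated libraries alone, the DC 22 h calls of Ncl, Tfrc, Hspd1, E2f1 and Slc3a2 were all lost (adjusted p from 0.0545 to 0.0708), with log2 fold changes of 1.05, 1.42, 1.51, 1.83 and -0.78.

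The median of this list followed the same libraries in which Myc was high. Relative to the mean of the unstimulated libraries, the log2 median of the 56 targets was 0.26, 0.91 and -0.07 in the DC 8 h replicates 1 to 3 and 0.20, 1.11 and -0.16 in the DC 22 h replicates. The same measure was 0.66, 0.20 and 0.51 in the IF 8 h group and 0.01, 0.18 and 0.48 in the IF 22 h group. In both DC groups replicate 2 stood far above the others, and replicate 3 was slightly below the controls.

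Myc itself differed from the unstimulated mean by 0.43, 1.56 and 0.04 in the DC 8 h libraries and by -0.25, 1.43 and -0.11 in the DC 22 h libraries. Odc1 differed by 1.01, 1.56 and 1.14 in DC 8 h and by 0.54, 1.57 and 0.34 in DC 22 h. Odc1 was thus raised by 1.01 or more in all 3 DC 8 h libraries, also in replicate 3, where Myc differed from the controls by 0.04. In the IF 8 h group Myc was highest in replicate 1 (1.11, against 0.35 and 0.42) and Odc1 in replicate 3 (1.46, against 1.27 and 0.60).

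**Figure D4:**
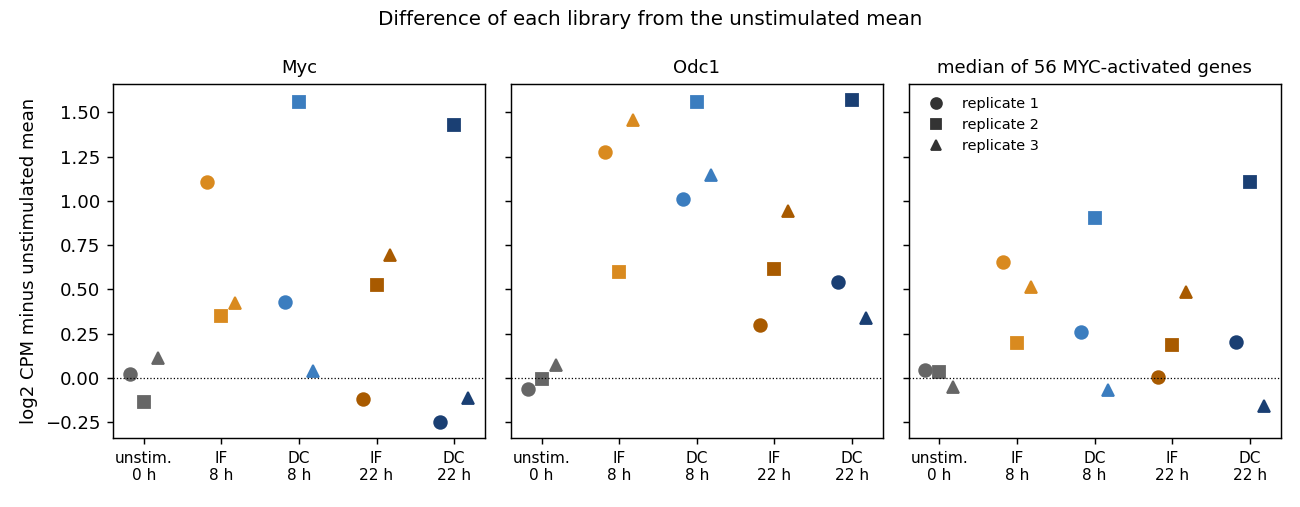
Log2 difference from the mean of the unstimulated libraries (vertical axis) for Myc, for Odc1 and for the median of the 56 MYC-activated genes in each of the 15 libraries. In the DC groups replicate 2 is the highest in all 3 panels, at 1.56 and 1.43 for Myc and 0.91 and 1.11 for the target median.

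In each stimulated group, the library with the highest Myc also had more of the 56 targets at their group maximum than the other libraries. The counts were 39 of 56 in IF 8 h replicate 1, 52 in DC 8 h replicate 2, 47 in IF 22 h replicate 3 and 55 in DC 22 h replicate 2. As shares these were 69.6%, 92.9%, 83.9% and 98.2%, beside 31.8%, 36.1%, 32.7% and 39.2% of all genes in the same libraries. In the unstimulated group, where Myc was highest in replicate 3, that library held the maximum of 12 targets, and replicates 1 and 2 held 20 and 24. These counts describe 1 library each and carry no test.

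The list medians of the DC groups therefore rested on a single library. Without DC 8 h replicate 2 the median was 0.08 with 32 of 56 values above 0 and 0 calls. Without DC 22 h replicate 2 it was 0.05 with 31 of 56 above 0, and of the 6 calls only Tfrc (0.83, adjusted p = 0.0382, edgeR) and Slc3a2 (-1.02, adjusted p = 0.00415) were kept. Without IF 22 h replicate 3 the median was 0.10, and without both IF 22 h replicates 2 and 3, whose share of mitochondrial ribosomal RNA was 0.179% and 0.146% against 3.17% in replicate 1, it was -0.02. In the IF 8 h group it stayed between 0.33 and 0.57 whichever library was left out. The DC replicates 2 had 7729279 (8 h) and 8185466 (22 h) counts, inside the range of the others. They had the lowest summed T cell markers (3880 and 4189 CPM) and dendritic cell markers (1570 and 922 CPM) of their groups and the highest summed immediate early and stress genes (3569 and 4062 CPM). The part of these in the target median was not tested.

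**Figure D5:**
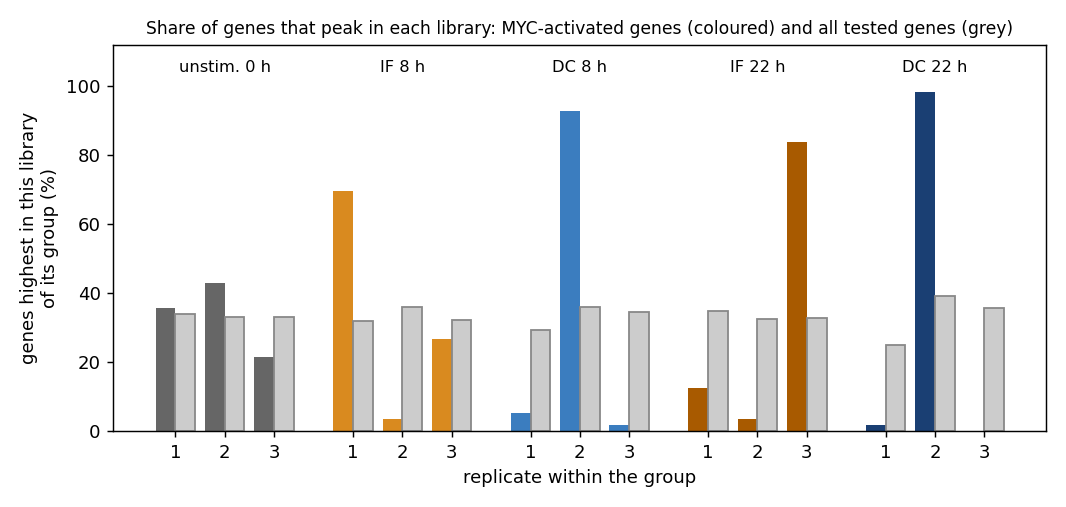
Share of genes (%, vertical axis from 0) that reached their group's highest level in each of the 15 libraries, for the 56 MYC-activated genes and for all 10831 tested genes. The targets peak together in 1 library of each stimulated group, at 69.6% to 98.2%, while the share of all genes is 39.2% or less in every library.

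Of the genes that MYC represses, 9 of a list of 12 were tested. In the IF 8 h group 2 rose and 0 fell; in DC 8 h 2 rose and 1 fell; in IF 22 h 1 fell; in DC 22 h 1 rose and 2 fell. The list's medians were 0.23, 0.11, 0.20 and -0.03, beside 0.02, 0.04, 0.01 and 0.04 over all genes. Of all tested genes, 3.04% rose and 4.72% fell in IF 8 h, and 2.75% and 4.07% in DC 8 h. At 22 h the shares were 2.63% and 3.44% (IF) and 3.41% and 4.35% (DC). By library, relative to the unstimulated mean, the list median was 0.38, -0.54 and 0.34 in DC 8 h replicates 1 to 3. In DC 22 h it was 0.07, -0.49 and 0.30. Cdkn1a, the cell cycle inhibitor p21, was at 1.03, 2.71 and 5.59 CPM in the controls, 8.56, 10.3 and 19.3 CPM in IF 8 h and 51.1, 169 and 46.1 CPM in DC 8 h. It rose in both 8 h groups, by 2.10 ± 0.60 (adjusted p = 0.0434) and 4.91 ± 0.61 (adjusted p = 0.00013), and in DC 22 h by 2.20 ± 0.58 (adjusted p = 0.0283), all in edgeR. Its DC 8 h call was kept whichever library was left out, with log2 fold changes of 4.03 to 5.61, whereas the IF 8 h and DC 22 h calls were lost in 5 and 4 of 6 such fits (adjusted p up to 0.172 and 0.122). Cdkn2c, the inhibitor p18, was at 15.9, 15.9 and 15.8 CPM in the controls and fell to 7.23, 4.60 and 7.34 CPM in DC 8 h (-1.31 ± 0.27, adjusted p = 0.00736, edgeR), a call also kept in all 6 such fits.

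The remaining calls of this list were less stable. Gadd45b, a stress-induced gene, rose in DC 8 h (1.57 ± 0.38, adjusted p = 0.0176), and Gadd45a fell in DC 22 h (-1.87 ± 0.52, adjusted p = 0.0342). Ndrg1 rose with immunofilaments at 8 h (1.36 ± 0.39, adjusted p = 0.0439) and fell with dendritic cells at 22 h (-1.70 ± 0.41, adjusted p = 0.0176). Btg1, an antiproliferative gene, fell in IF 22 h (-0.998 ± 0.27, adjusted p = 0.0403). With scaling by library size alone the calls of Btg1 (-0.79, adjusted p = 0.0937) and Gadd45a (-1.55, adjusted p = 0.0542) were lost, and with the replicate block that of Ndrg1 in IF 8 h (1.37, adjusted p = 0.066). All p-values are from edgeR, and each call was lost in 2 to 5 of the 6 fits without 1 library. Without DC 22 h replicate 2 the 3 calls of this list in that group were lost, as they were in a fit of the DC 22 h and unstimulated libraries alone (adjusted p = 0.0516 for Cdkn1a, 0.0986 for Ndrg1 and 0.0631 for Gadd45a).

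Around Odc1, the polyamine pathway gave few calls: of 15 tested genes of a list of 20, Odc1 alone rose at 8 h, and Slc3a2 alone fell, in DC 22 h. Of all tested genes, 3.04% (IF) and 2.75% (DC) rose at 8 h, and 4.35% fell in DC 22 h. Srm, spermidine synthase, was at 165, 196 and 163 CPM in the controls and at 444, 272 and 347 CPM (IF 8 h), 305, 688 and 214 CPM (DC 8 h), 218, 274 and 374 CPM (IF 22 h) and 262, 801 and 154 CPM (DC 22 h). Its log2 fold changes were 1.02, 1.202, 0.72 and 1.21, with edgeR adjusted p from 0.140 to 0.422, and its DC values were again highest in replicate 2. Sms, spermine synthase, was at 36.6 to 42.4 CPM in the controls and 30.1 to 74.9 CPM in stimulated libraries. Oaz1, antizyme, which directs ornithine decarboxylase to degradation, was at 31.7 to 41.2 CPM in the controls and 20.9 to 33.6 CPM after stimulation, with log2 fold changes of -0.18 to -0.48 (adjusted p from 0.167 to 0.666, edgeR). Azin1, the antizyme inhibitor, and Sat1, which acetylates spermidine and spermine for export, gave adjusted p from 0.267 to 0.963 in the same test. Amd1 had 2 counts in all libraries together and was not tested; reads of it and of its near-identical copy Amd2 may have been split or dropped.

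Among the network's other factors, Mlxip, which encodes MONDOA, rose in the IF 22 h group from 25.5, 15.4 and 15.4 CPM to 29.3, 45.8 and 39.9 CPM (1.02 ± 0.27, adjusted p = 0.0352, edgeR), and the call was lost in 4 of 6 fits without 1 library and with the replicate block (adjusted p = 0.0523). Without both IF 22 h replicates 2 and 3, where it was highest, the value was 0.64 (adjusted p = 0.614). Mga, which pairs with MAX, was at 38.4, 12.2 and 6.33 CPM in the IF 22 h libraries and at 27.2 to 32.9 CPM in the controls (-0.69, adjusted p = 0.436). The same pair, replicates 2 and 3, held little mitochondrial ribosomal RNA; the part of that in Mlxip and Mga was not tested. Mycn and Mlxipl had 20 and 6 counts over all libraries and were not tested. Of 7 genes induced by MONDOA and MLX, Klf10 alone was called, lower in IF 8 h (-1.42 ± 0.39, adjusted p = 0.0346, edgeR). In that comparison 4.72% of all tested genes were lower. In edgeR the Klf10 call was lost with scaling by library size alone (-1.18, adjusted p = 0.0626) and with the replicate block (-1.41, adjusted p = 0.0531). It was also lost in 5 of 6 fits without 1 library (-1.68 to -1.14). Txnip, the most used readout of that pair, was at 609 to 760 CPM in the controls and 288 to 718 CPM in stimulated libraries (log2 fold change -0.31 to -0.44, adjusted p from 0.341 to 0.561), and Arrdc4 was at 4.99 CPM or less throughout.

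The proteins that MYC and its rivals recruit gave a single call, in IF 8 h, where 3.04% of all tested genes rose. Sap18, a subunit of the SIN3 corepressor complex, rose in IF 8 h from 10.1, 8.13 and 8.15 CPM to 17.8, 23.9 and 19.6 CPM (1.203 ± 0.27, adjusted p = 0.0133, edgeR), and its exons overlap Ska3 on the other strand. The call was lost without unstimulated replicate 2 (adjusted p = 0.0554) or 3 (0.0529). None of the other 9 corepressor genes and none of 12 coactivator genes was called against unstimulated cells. In DC 22 h 3.41% of all tested genes rose. Of 14 genes that control the stability of the MYC protein, 2 rose, both in that group. These were Skp2, an F-box protein that targets MYC (3.13 ± 0.88, adjusted p = 0.0368), and C330027C09Rik, the older symbol of Cip2a, an inhibitor of a phosphatase that destabilises MYC (2.19 ± 0.52, adjusted p = 0.0148). Skp2 was at 0.734, 1.08 and 0 CPM in the controls and 5.12, 9.84 and 2.05 CPM in DC 22 h, and C330027C09Rik went from 3.67, 4.34 and 3.03 CPM to 15.4, 28.6 and 6.92 CPM. Both were highest in replicate 2, and both calls were lost without it (adjusted p = 0.169 and 0.0821, edgeR). Over the 6 fits without 1 library, the Skp2 call was lost in 5 and the C330027C09Rik call in 3, including those without unstimulated replicate 1 or 3 in both cases. The Skp2 call was also lost in a fit of the DC 22 h and unstimulated libraries alone (3.14, adjusted p = 0.0712).

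The tested genes whose levels ran closest to Myc over the 15 libraries were Cct3, a subunit of the cytosolic chaperonin, Eif5a, the translation factor that carries the polyamine-derived residue hypusine, and Phb, prohibitin. Likeness was the root mean square difference of log2 CPM after centring each gene, 0.20, 0.21 and 0.22, beside a median of 0.73 over all genes and a standard deviation of Myc itself of 0.55. Closest to Odc1 were Heatr1, a ribosome assembly factor (0.21), Nomo1 (0.24) and Rps19bp1 (0.24), beside a median of 0.72. For Mxd1 the closest were Zfyve16, Piga and Zc3h12a, at 0.46 each, beside a median of 0.90, so no gene tracked Mxd1 as closely. Of the 6 genes nearest to Myc and Odc1, Eif5a and Phb held CACGTG in a RefSeq promoter entry, as did 15 of the 48 MYC-activated genes with an entry. Of all tested genes with an entry, 12.1% did. Eif5a had several entries, and not all of them held the motif.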

How the data were processed

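RNA of 15 samples was sequenced with an adapted CEL-seq protocol (3′ end counting) on a NextSeq 500, per the labels' protocols. The authors deposited 1 table of raw counts per gene and library. Per the submitters' processing notes, BWA and mm10 were used. The annotation, the counter, the use of strand and of molecular identifiers are not given in the sources used here.

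Genes were kept with filterByExpr (count minimum 10, total minimum 15), scaled by TMM and tested with edgeR 4.0.16 (limma 3.58.1, R 4.3.3), with a quasi-likelihood fit of 5 group means over all 15 libraries, two-sided, and Benjamini-Hochberg adjustment over all genes at 0.05. Each SE is the absolute log2 fold change divided by the square root of the F statistic, and intervals are 95%. Log2 CPM used a prior count of 2. With 2892874 to 19806730 counts per library, intervals reflect the spread of 3 libraries a group. The code was tested on simulated data. Alternatives were DESeq2 1.42.0, its size factors, library size alone, no filter, a mean of at least 10 CPM, a replicate block, only the groups compared, a threshold of 0.01, and leaving out libraries.

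Sample titles carry the same numbers (Don, 1 to 3) in every group. The correlation of deviations from group means was over 0.1 for all 3 same-numbered pairs of DC 8 h and DC 22 h (0.12, 0.40 and 0.24). This held for no other pair of groups, and the DC groups alone were therefore also fitted with the number as a block. It does not show that the numbers pair them, because the deviations within a group depend on one another. Of the differently numbered DC pairs, 0.117 (DC 8 h library 3 with DC 22 h library 1) and 0.107 (1 with 3) were also over 0.1.

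Members and lists were chosen with earlier results of these data known. All 9 members are named; from other lists, up to 3 called genes in each direction with the smallest p in each comparison described, a fixed set of polyamine and MLX-related genes, and the 3 genes most like Myc, Odc1 and the repressor of widest range. Mycl and Cip2a were matched by the older symbols Mycl1 and C330027C09Rik. Promoters are from RefSeq (GRCm38.p6) and gene positions from GENCODE vM21.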

Additional observations from a re-analysis of the deposited data

Results flagged for a closer look

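No member differed between the stimuli by the adjusted test, but 4 genes of the MYC-repressed list did, each by the direct edgeR comparison of IF with DC at 1 time. These were 2 of 9 tested genes at 8 h, beside 0.665% of all genes, and 2 of 9 at 22 h, beside 2.43%. The list was chosen with earlier results of these data known and the 4 genes because they passed, so these shares are no test. Cdkn1a at 8 h was lower with immunofilaments, at 8.56 to 19.3 CPM against 46.1 to 169 CPM (log2 difference -2.81 ± 0.53 SE, adjusted p = 0.0187). Cdkn2c at 8 h was higher with immunofilaments, at 15.3 to 19.1 CPM against 4.60 to 7.34 CPM (1.42 ± 0.28, adjusted p = 0.0231). Ndrg1 at 22 h was higher with immunofilaments, at 8.13 to 13.9 CPM against 2.21 to 3.98 CPM (1.90 ± 0.41, adjusted p = 0.0195). Gadd45b at 22 h was lower with immunofilaments, at 14.3 to 15.1 CPM against 29.6 to 64.4 CPM (-1.55 ± 0.38, adjusted p = 0.0369). The groups did not overlap for any of the 4, as for 13.5% (8 h) and 19.9% (22 h) of all genes. Without 1 library these calls were lost in 3 (Cdkn1a), 5 (Cdkn2c), 3 (Ndrg1) and 4 (Gadd45b) of 6 fits, with log2 differences of -3.24 to -1.94, 1.23 to 1.52, 1.68 to 2.21 and -1.76 to -1.15. Without DC replicate 2 at the same time all 4 were lost (adjusted p = 0.104, 0.108, 0.0609 and 0.124). With the replicate block the call of Gadd45b was lost (-1.49, adjusted p = 0.0533), and in fits of only the groups compared those of Cdkn2c (0.0955), Ndrg1 (0.0724) and Gadd45b (0.0683) were lost. Whether these differences changed from 8 h to 22 h did not pass the test for any of them (adjusted p from 0.175 to 0.996, edgeR).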

How the results depend on the processing

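Of 81 member log2 fold changes (9 members in 9 comparisons), 1215 alternative values were computed: 1121 kept direction and side of the threshold, 11 lost a call, 17 gained one, and 66 changed sign, 0 of them past the threshold in either setting. The cause of these changes was not tested. The number of members called moved as follows. For IF 8 h against unstimulated cells (1 member) it was 0 at a threshold of 0.01 and 2 with DESeq2, which added Mlx. For DC 8 h (1 member) it was 0 at 0.01, 2 when libraries were scaled by size alone and 2 when the fit held just the compared groups (both adding Mxd1), and 3 without a low-count filter (Mxd1 and Myc). For IF 22 h (0 members) it was 1, Odc1, without the filter and in the fit of the compared groups. For DC 22 h (0 members) it was 1, Odc1, with library size alone, without the filter, with a mean of at least 10 CPM and with DESeq2. Between the stimuli (0 members) it was 1 at 8 h without the filter and with DESeq2 (Mxd1), and 1 at 22 h without the filter (Mxd4). Leaving out 1 library gave 0 to 1 members in IF 8 h, DC 8 h, DC 22 h and the IF and DC comparison at 8 h. Calls on the MYC-activated list moved more: with DESeq2, 9, 2, 1 and 8 of 56 were called in IF 8 h, DC 8 h, IF 22 h and DC 22 h, with library size alone 8, 4, 2 and 19, without the low-count filter 19, 15, 8 and 22, and in the fit of the compared groups 29, 2, 10 and 1, beside 4, 1, 1 and 6. Over all genes edgeR called 840, 739, 658 and 840 in these comparisons, and 1113, 1079, 838 and 1586 with library size alone, 1167, 1129, 1101 and 1278 without the filter, 1269, 1175, 1066 and 1267 with DESeq2, and 1299, 827, 993 and 517 in the fit of the compared groups.

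Signs changed, with no call, for these log2 values. With library size alone they were 0.12 for Mxd4 in IF 8 h, 0.12 for Mxi1 and 0.052 for Mnt in DC 8 h, and 0.14 for Mnt and 0.046 for Mlx in DC 22 h. Without both IF 22 h libraries 2 and 3 they were -0.12 for Myc and -0.044 for Max. Leaving out 1 library gave, in IF 8 h, -1.34 to 0.25 for Mxd3 and -0.46 to 0.34 for Mxd4; in DC 8 h, -0.42 to 0.13 for Mxi1; in IF 22 h, -0.053 to 0.13 for Max and -0.073 to 0.26 for Mnt. In DC 22 h it gave -0.16 to 0.86 for Myc, -0.037 to 0.25 for Max, -0.12 to 0.33 for Mxd1, -0.18 to 0.66 for Mxd3, -0.81 to 0.015 for Mxd4 and -0.35 to 0.015 for Mnt. Between the stimuli it gave -0.46 to 0.43 (8 h) and -0.45 to 0.58 (22 h) for Myc, and -0.28 to 0.11 and -0.50 to 0.20 for Odc1.

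Of 10 pairs of groups, DC 8 h with DC 22 h was the only 1 in which every same-numbered pair of libraries had a correlation of deviations over 0.1 (0.12 to 0.40). No pair of groups was shown to be paired by number. Over all groups the values were -0.19 to 0.40 for 30 same-numbered pairs and -0.31 to 0.21 for 60 other pairs. With the replicate block over all groups, 1 member was called in IF 8 h (Odc1, 1.18, adjusted p = 0.0269, edgeR) and 1 in DC 8 h (1.24, adjusted p = 0.0203), and no count of members moved. Of 83 named results 6 lost their call and 0 gained one. For DC 22 h against DC 8 h, a fit of the DC groups alone with the replicate block, added after seeing the data, called 1 member (Mxd1) and 166 genes, beside 0 members and 52 genes. Mxd3 had the fewest counts of the members, 50 over the IF 8 h libraries.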
